A study of Homo sapiens with 4 samples.

Results

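Regions of the genome whose contacts differed in the same direction between control fibroblasts, taken to be proliferating, and each of 3 senescent fibroblast libraries are described here. Chromatin contacts were measured by H3K27ac HiChIP, in which neighbouring chromatin ends are ligated inside fixed cells and the ligated fragments carrying acetylated lysine 27 of histone H3, found at active promoters and enhancers, are then enriched by antibody. Its unit is the paired-end tag (PET), a read pair that joins 2 anchors. Overlapping anchors were merged into 79742 regions, of which 38038 held anchors of both the control and the senescent anchor set. At least 50 PETs over both libraries of every comparison were found in 14421 of these, and 23617 shared regions had fewer. All 3 senescent libraries lay on the same side of control in 11504 of the 14421 regions (79.8%), with 5381 higher (37.3% of the regions compared) and 6123 lower (42.5%), while 2917 were of mixed direction.

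All cells were IMR90, an established line of human embryonic lung fibroblasts grown at low oxygen. The control library is labelled wild type, names no hairpin and is not called proliferating in the labels. Senescence was driven by an inducible fusion of the estrogen receptor with oncogenic H-RAS (ER: RAS), and the senescent libraries come from cells with a control hairpin named shcontrol, with METTL3 knocked down (shMETTL3) or with METTL14 knocked down (shMETTL14). The labels do not say whether the control cells carried the fusion or a hairpin, how long RAS was on, or whether a knockdown came from more than 1 hairpin, and 1 protocol text names METTL4 where the genotype label names METTL14. Each group is 1 library, so no difference has a replicate check and no test of conditions was possible. The 3 comparisons share the control library and are given side by side.

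The libraries held 998378 PETs in control, 552029 in shcontrol, 623930 in shMETTL3 and 936492 in shMETTL14. The control library was deposited on its own anchor set, which covers 318 Mb, and the senescent libraries on another that covers 232 Mb, so anchor set and condition cannot be told apart. Whether anchor length itself follows the signal was not tested, and a wider anchor can collect more PETs. The length that each set covers in a region is therefore given beside its PETs, and PETs per 1000000 were also divided by the length covered by the library's own set (PETs per covered kb). A region can gain PETs through more acetylation or through more contact, and fewer cells with a contact cannot be told apart from a weaker contact in every cell. Of 11 fibroblast marker genes with a known position, 9 started in shared regions, and their summed level was 2341 PETs per 1000000 in control, 2346 in shcontrol, 2055 in shMETTL3 and 1901 in shMETTL14. The epithelial markers EPCAM and CDH1 and the endothelial markers CDH5 and KDR had no region in either anchor set, and the immune marker PTPRC had 11 PETs in control and 6, 3 and 18 in the senescent libraries, in the order shcontrol, shMETTL3, shMETTL14 that is used throughout.

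Senescence is a lasting arrest of the cell cycle. Cells driven into it by oncogenic RAS secrete cytokines, chemokines, proteases and growth factors, known together as the senescence-associated secretory phenotype (SASP), whose genes are controlled largely by NF-kB, C/EBP and AP-1 factors. Enhancers reach promoters by looping, and many active enhancers carry H3K27ac, so HiChIP reads the contacts of active elements. METTL3 and METTL14 form the complex that writes N6-methyladenosine on RNA.

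Promoters of 4 SASP and NF-kB genes are shown as examples, from genes whose start regions were higher in every senescent library, described further on. They are RefSeq sequences on GRCh38.p14, from 250 bases before to 50 bases after the gene start, and capitals mark matches on either strand to an AP-1 motif (TGANTCA) or an NF-kB motif (GGNNTTTCC). IL1A lies on the minus strand at chr2:112784444-112784743, and CXCL8, CXCL1 and TNFAIP3 lie on the plus strand at chr4:73740319-73740618, chr4:73869143-73869442 and chr6:137867009-137867308.
IL1A: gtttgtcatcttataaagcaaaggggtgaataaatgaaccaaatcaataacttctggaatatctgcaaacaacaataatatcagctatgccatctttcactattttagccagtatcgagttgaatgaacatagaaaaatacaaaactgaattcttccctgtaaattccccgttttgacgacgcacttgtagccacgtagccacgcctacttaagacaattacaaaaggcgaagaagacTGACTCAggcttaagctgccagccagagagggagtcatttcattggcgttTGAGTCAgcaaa
CXCL8: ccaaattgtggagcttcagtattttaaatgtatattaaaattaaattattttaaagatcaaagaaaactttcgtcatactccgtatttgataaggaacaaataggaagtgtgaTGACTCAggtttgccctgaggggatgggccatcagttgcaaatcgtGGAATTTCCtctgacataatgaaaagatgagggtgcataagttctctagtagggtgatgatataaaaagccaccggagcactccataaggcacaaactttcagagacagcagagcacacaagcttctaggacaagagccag
CXCL1: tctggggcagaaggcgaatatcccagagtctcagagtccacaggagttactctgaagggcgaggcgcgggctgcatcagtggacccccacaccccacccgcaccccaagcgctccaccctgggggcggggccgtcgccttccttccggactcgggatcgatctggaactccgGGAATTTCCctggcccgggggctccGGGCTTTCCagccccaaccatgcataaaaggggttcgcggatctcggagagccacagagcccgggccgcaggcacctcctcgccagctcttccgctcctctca
TNFAIP3: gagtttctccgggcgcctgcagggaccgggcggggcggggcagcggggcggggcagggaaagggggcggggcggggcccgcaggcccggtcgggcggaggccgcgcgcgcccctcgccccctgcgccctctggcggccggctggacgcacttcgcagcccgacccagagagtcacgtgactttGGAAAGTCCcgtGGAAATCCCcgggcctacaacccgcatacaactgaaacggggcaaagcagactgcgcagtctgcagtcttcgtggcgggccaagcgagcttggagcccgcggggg
Both matches of IL1A were to the AP-1 motif and both of CXCL1 and of TNFAIP3 to the NF-kB motif, while CXCL8 held 1 of each. The AP-1 motif was found in 7.76% of 27305 RefSeq promoters of this length and the NF-kB motif in 6.26%. Of the 21 listed genes with higher start regions, 17 had a promoter in the table, and 4 of these held the AP-1 motif (23.5%) and 7 the NF-kB motif (41.2%). All 4 promoters shown held a match, while those of IL1B, PTGS2, EREG, TIPARP, SPRY2, SPRED2 and GREM1 held neither motif. Of the 12 listed genes with lower start regions, 8 had a promoter, and 1 held the AP-1 motif, that of FOSL2, and 0 the NF-kB motif. CXCL1, CXCL2 and CXCL3 are close copies of each other, so their matches are not separate observations. The lists include SASP and NF-kB genes by choice, so their shares have no matched comparison in all promoters. Listed genes that did not meet the rule were not counted for motifs. A match is a description of letters and not a binding site.

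A size rule marked the larger differences. It asked, in each comparison, for a ratio of PETs per 1000000 of at least 2 after adding 1 to both values, and for a 95% interval of that ratio (exact, binomial given the summed PETs) that leaves out 1. These intervals cover counting error only, since PCR reads without molecular identifiers are not independent molecules. By this rule 1498 regions were higher in all 3 senescent libraries (10.4% of the regions compared) and 1558 lower (10.8%). Taken singly, 2125 regions were higher (14.7%) and 2301 lower (16%) in shcontrol, 2249 (15.6%) and 2754 (19.1%) in shMETTL3, and 2148 (14.9%) and 2571 (17.8%) in shMETTL14. The number of regions higher in 1 senescent library and lower in another was 0. At the edge of the rule, the weakest higher region had a log2 ratio nearest 0 of 1.0012, the next region outside stood at 0.998872, and the corresponding values for lower regions were -1.00079 and -0.999902.

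The median range of the 3 log2 ratios was 0.39 at higher and 0.57 at lower regions, against 0.49 over all regions compared. The gap from control to the nearest senescent library was larger than that range at 1492 of 1498 higher (99.6%) and 1448 of 1558 lower regions (92.9%), which the rule itself favours, against 45.6% of all regions compared. Covered length moved with direction. The median region was covered over 5.06 kb by the control set and 7.79 kb by the senescent set where it was higher, and over 8.98 and 3.28 kb where it was lower. Per covered kb 1175 regions were higher (8.15%) and 91 lower (0.631%), and 856 (5.94%) and 88 (0.61%) met the rule by both measures. By PETs 49.0% of the called regions were higher, and per covered kb 92.8% were. Over all regions compared the median log2 ratio was -0.02, -0.10 and -0.09 by PETs and 0.35, 0.29 and 0.30 per covered kb. In 759 regions with identical anchor ends in the control and senescent sets, 73 were higher and 4 lower, with median log2 ratios of 0.42, 0.38 and 0.39.

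Of the 12 highest regions among those that met the rule by both measures, 3 lay at a gene of the naming table, those of TNFSF15, IL1B and PDE4B. A region at TNFSF15, which encodes a cytokine of the TNF family (chr9:117564596-117571007, hg19, as are all region positions), held 3 PETs in control and 52, 101 and 92 in the senescent libraries, with 2.74 kb covered by the control set and 6.41 kb by the senescent set. Its log2 ratios were 4.57, 5.35 and 4.63, and with so few control PETs the interval of the ratio in shcontrol ran from 10.2 to 157. Control stood far below all 3 senescent libraries.

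The start of IL1B, which encodes interleukin-1 beta (chr2:113590140-113601631), had 11 PETs in control and 214, 271 and 348 in the senescent libraries, the latter 388, 434 and 372 PETs per 1000000. The log2 ratios were 5.02, 5.18 and 4.95 by PETs, and 3.26, 3.42 and 3.20 per covered kb with 3.40 kb covered by the control and 11.5 kb by the senescent set. A region 166 kb from TNFAIP3, which encodes the NF-kB inhibitor A20 (chr6:138008075-138022537), went from 4 PETs in control to 145, 141 and 250. Its log2 ratios were 5.72, 5.50 and 5.74, or 3.33, 3.11 and 3.35 per covered kb.

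Close to PTGS2, which encodes the prostaglandin-producing enzyme COX-2, a region 31.7 kb from the gene (chr1:186681303-186688576) held 3 PETs in control against 67, 62 and 112, with 2.57 and 7.27 kb covered. At PDE4B, which encodes a phosphodiesterase of cyclic AMP, both sets have the same anchor of 5.20 kb (chr1:66828533-66833736), though the anchors of its partners can differ. It held 12 PETs in control and 50, 67 and 81 in the senescent libraries, log2 ratios of 2.81, 3.06 and 2.75 with intervals of the ratio of 3.96 to 15.5, 4.79 to 18.1 and 3.90 to 14.5.

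The other 7 of the 12 highest regions lay 137 kb or more from any gene used for naming. The region at chr20:7714340-7727030, 137 kb from HAO1, had 11 PETs in control against 147, 194 and 265, and that at chr6:106173068-106177446, between PREP and PRDM1, 6 against 48, 46 and 109. PRDM1 encodes the transcriptional repressor BLIMP-1. Across all 12 regions the control library held 3 to 12 PETs and the log2 ratios ran from 2.75 to 5.74, with the senescent libraries all above control.

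**Figure D1:**
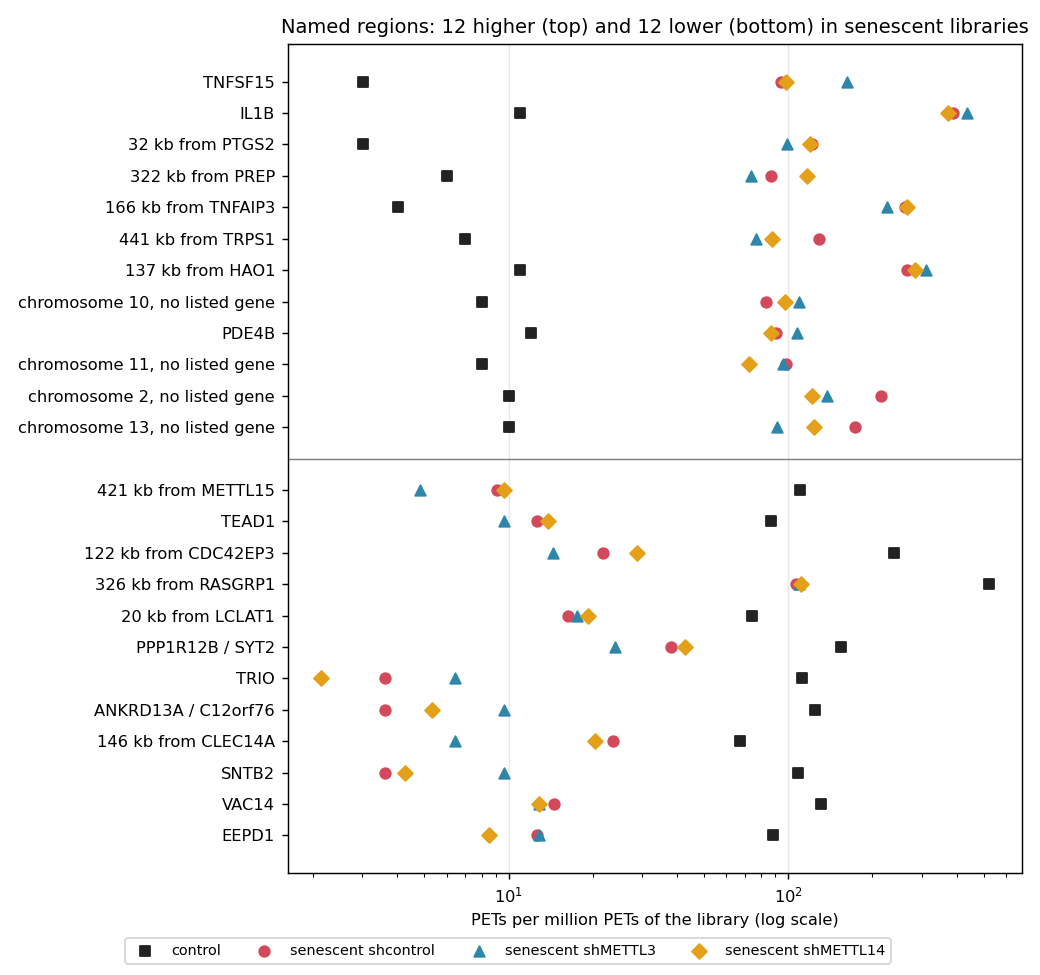
PETs per 1000000 (log scale) at the 12 named higher and 12 named lower regions in control (squares), senescent shcontrol (circles), shMETTL3 (triangles) and shMETTL14 (diamonds), 1 library each. In every row the 3 senescent libraries lie on 1 side of control, which the choice of regions fixes; the control library holds 3 to 12 PETs in the upper rows.

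Higher regions, joined when less than 250 kb apart, formed 647 loci, of which 348 were single regions and 77 held 5 or more. Whether they lay closer together than other regions compared was not tested. A PET that joins neighbouring regions is counted at each of them, so neighbours are not independent. Each locus begins and ends at a called region, and loci were ranked by their number of called regions. Shares of called regions inside the loci named here are therefore raised by the choice. The locus with most regions covered chr12:88563667-90652369, with KITLG, which encodes the ligand of the KIT receptor, DUSP6, a phosphatase that turns off ERK, and ATP2B1, a calcium pump. Of its 47 regions compared 35 met the rule, 30 of them per covered kb too. PETs with an end there numbered 1427 in control and 3235, 3633 and 5194 in the senescent libraries, ratios of PETs per 1000000 of 4.10 (3.85 to 4.37), 4.07 (3.83 to 4.33) and 3.88 (3.66 to 4.12), with 306 kb covered by the control and 402 kb by the senescent set. The senescent libraries were above control on both sides of DUSP6.

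The CXCL chemokine cluster with the neighbouring EREG and AREG genes, ligands of the EGF receptor, came next (chr4:74524943-75588672). All 24 regions compared there met the rule, with 598 PETs in control and 1991, 1549 and 2682 in the senescent libraries, and ratios of 6.02 (5.49 to 6.61), 4.14 (3.77 to 4.56) and 4.78 (4.37 to 5.23). Around TNFAIP3 (chr6:138008075-138219452) 12 of 12 regions met it, with 254 PETs against 929, 949 and 1662 and ratios of 6.61, 5.98 and 6.98. From PREP to PRDM1 (chr6:105583168-106552323) 20 of 24 regions did, with 701 PETs against 1707, 2084 and 3041.

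The remaining loci of this rank were at PDE4B and SGIP1 on chromosome 1 (14 of 16 regions), at POU5F1B upstream of MYC (13 of 16), at NALF1 (12 of 13), on the TRPS1 side of chromosome 8 (12 of 12), at HS3ST3A1 (11 of 13) and at VEGFC, which encodes a growth factor of lymphatic vessels. At VEGFC 11 of 22 regions were higher and 2 lower, so direction was mixed inside that locus. The covered length in the senescent set was 0.995 to 1.43 times that in the control set over these 10 loci.

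**Figure D2:**
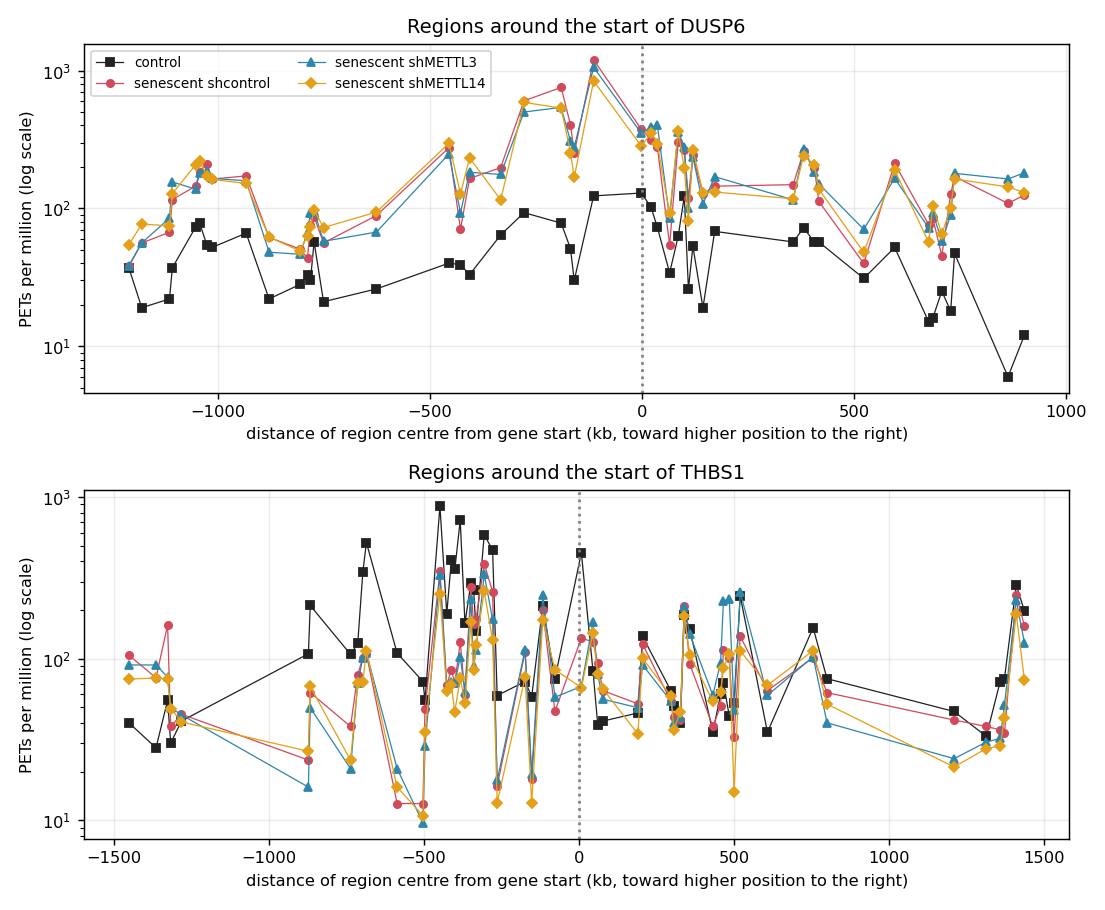
PETs per 1000000 (log scale) of regions with enough PETs within 1.5 Mb of the starts of DUSP6 (upper) and THBS1 (lower), by distance of the region's centre in kb; each point is 1 region in 1 library and lines only join neighbours. Senescent libraries lie above control over most of the DUSP6 panel, where 35 regions met the rule as higher, and below it over a stretch left of THBS1, where 16 met it as lower.

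Listed genes were placed by the shared region within 5 kb of their start, and 101 of 156 had one with enough PETs. Among these, 21 met the rule as higher and 12 as lower, against 10.4% and 10.8% of all regions compared. The lists were chosen with earlier results of these data known, so their counts describe and do not test. Among the cytokines and chemokines, 12 of 20 genes could be compared, 7 were higher and 0 lower, with median log2 ratios of 2.59, 1.80 and 2.22 against -0.02, -0.10 and -0.09 over all regions.

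The start of IL1A, which encodes interleukin-1 alpha, had 10 PETs in control and 115, 106 and 127 in the senescent libraries, log2 ratios of 4.25, 3.96 and 3.63. At CXCL8, which encodes interleukin-8, a chemokine that attracts neutrophils (chr4:74582038-74608665), there were 113 PETs in control and 514, 296 and 614 in the senescent libraries. Its log2 ratios were 3.03, 2.06 and 2.52 with 19.3 and 26.6 kb covered, so the shcontrol library was the highest and all 3 stood above control.

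CXCL1, another neutrophil chemokine, had 7 PETs against 68, 59 and 66, CXCL3 had 32 against 150, 90 and 155, and CXCL2 had 23 against 62, 43 and 99. At CXCL2 the senescent set covers less (3.64 against 4.89 kb), and its log2 ratios were 2.24, 1.54 and 2.15. These genes are close copies, and the labels do not say how reads that fit more than 1 copy were treated, so the split of PETs between them is uncertain. PTGS2 had 14 PETs at its start against 63, 41 and 68, log2 ratios of 2.94, 2.15 and 2.29, also with less length covered in the senescent set.

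Other cytokine genes were closer to control. LIF, a cytokine of the interleukin-6 family, had 269 PETs against 380, 370 and 445 and log2 ratios of 1.35, 1.14 and 0.82, past the rule per covered kb but not by PETs. IL6 itself had 218 PETs against 166, 144 and 250, with log2 ratios of only 0.46, 0.08 and 0.29. Per covered kb they were 0.95, 0.57 and 0.78. CCL2, which encodes a monocyte chemokine, had 56 PETs against 22, 15 and 38. Its log2 ratios by PETs were -0.48, -1.19 and -0.46, the direction opposite to the CXCL genes. Per covered kb they were 0.12, -0.58 and 0.15, so this direction held by both measures in shMETTL3 only.

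Of 8 protease and inhibitor genes compared, 4 were higher and 0 lower, against 10.4% and 10.8% of all regions compared. MMP3, which encodes stromelysin (chr11:102712646-102725723), had 11 PETs in control and 158, 164 and 222 in the senescent libraries, log2 ratios of 4.58, 4.46 and 4.31, or 2.81, 2.69 and 2.54 per covered kb. MMP1, a collagenase, had 24 PETs against 104, 135 and 165, and MMP10 had 13 against 59, 59 and 47. SERPINB2, an inhibitor of plasminogen activators, had 74 PETs against 118, 124 and 205, and did not pass per covered kb.

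Growth factors gave 3 higher of 11 and 0 lower, against 10.4% and 10.8% of all regions compared. EREG, encoding epiregulin, had 89 PETs in control and 176, 193 and 280 in the senescent libraries, log2 ratios of 1.83, 1.78 and 1.73 with 20.9 and 23.2 kb covered, so the senescent libraries hardly differed from each other. INHBA, which encodes the activin A subunit, had 178 PETs against 200, 319 and 336 and log2 ratios of 1.02, 1.51 and 1.00, just inside the rule (with TMM scaling the value nearest 0 was 0.90, outside it), with less length covered in the senescent set. STC1, a secreted glycoprotein hormone, had 62 PETs against 181, 183 and 200, but the senescent set covers 10.7 kb there and the control set 3.60 kb, and per covered kb its log2 ratios were 0.81, 0.65 and 0.19.

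Among regulators of these genes, TNFAIP3 was the 1 of 3 NF-kB genes compared that met the rule. Of all regions compared 10.4% met it as higher. Its start had 50 PETs in control and 186, 180 and 315 in the senescent libraries, log2 ratios of 2.73, 2.50 and 2.72. NFKBIA, which encodes the inhibitor IkB-alpha, had 79 PETs against 93, 86 and 111, and its log2 ratios of 1.08, 0.79 and 0.58 fell short.

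The AP-1, C/EBP and ETS list held 1 higher and 1 lower of 9, close to the 10.4% and 10.8% of all regions compared. ETS1, an ETS-family factor downstream of RAS, had 56 PETs against 122, 187 and 276, log2 ratios of 1.96, 2.40 and 2.37. FOSL2, an AP-1 subunit, was lower by PETs (259 against 69, 70 and 115), with log2 ratios of -1.05, -1.20 and -1.07. Per covered kb FOSL2 stood at 0.04, -0.12 and 0.01, since the senescent set covers 11.2 kb there and the control set 23.7 kb.

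The RAS and ERK feedback list, mostly inhibitors of the pathway but also its receptor EGFR and PHLDA1, gave 3 higher of 9 and 0 lower. Over all regions compared the shares were 10.4% and 10.8%. Of the 9, 8 were above control in every senescent library, against 37.3% of all regions compared. DUSP6 had 129 PETs at its start against 207, 219 and 265, log2 ratios of 1.53, 1.43 and 1.12. SPRY2, which encodes the feedback inhibitor Sprouty2, had 74 against 136, 113 and 178, log2 ratios of 1.72, 1.28 and 1.35, and SPRED2, a related inhibitor, had 61 against 77, 86 and 133. All 3 passed per covered kb. EGFR had 230 PETs against 102, 133 and 213 and log2 ratios of -0.32, -0.11 and -0.02. Per covered kb its log2 ratios were 0.29, 0.50 and 0.59.

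**Figure D3:**
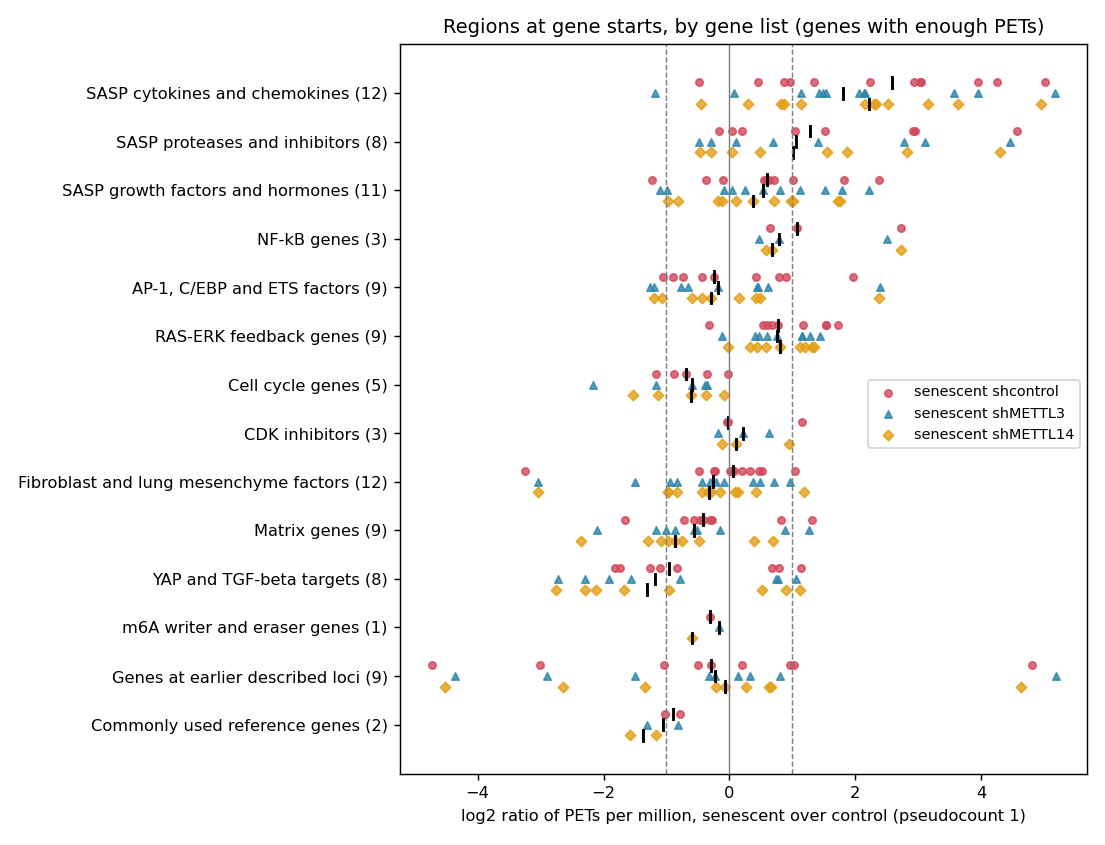
Log2 ratio of PETs per 1000000 (senescent over control, pseudocount 1) at the start regions of listed genes with enough PETs, the number in brackets; symbols mark the 3 senescent libraries, black ticks list medians, dashed lines a 2-fold difference. Cytokines and proteases reach log2 ratios above 4 while YAP and TGF-beta targets have medians of -0.97, -1.18 and -1.32. Per covered kb, not shown, the medians of the latter were 0.62, 0.03 and -0.06.

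Of the 12 lowest regions that met the rule by both measures, 7 lay at genes used for naming. A region at TEAD1, the DNA-binding partner of YAP (chr11:12819246-12826659), had 87 PETs in control and 7, 6 and 13 in the senescent libraries, log2 ratios of -2.69, -3.05 and -2.57, or -1.82, -2.19 and -1.70 per covered kb. At TRIO (chr5:14460916-14473314), there were 112 PETs against 2, 4 and 2, with 12.4 and 2.46 kb covered. Control was above all 3 senescent libraries at both regions. The start of TRIO had anchors of the senescent set only and was not compared.

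The region at ANKRD13A and C12orf76 (chr12:110472345-110482898) had 125 PETs against 2, 6 and 5, and a region in SNTB2, a syntrophin that links membrane proteins to actin (chr16:69303023-69312596), had 108 against 2, 6 and 4. The 1 of the 12 with identical anchor ends, 4.72 kb on chromosome 14 (chr14:38871665-38876379), had 67 PETs against 13, 4 and 19, log2 ratios of -1.47, -3.20 and -1.68. The 1 with most control PETs, 326 kb from RASGRP1 (chr15:39182973-39192984), had 522 PETs against 59, 68 and 104, ratios whose intervals ran from 0.153 to 0.268, 0.159 to 0.269 and 0.170 to 0.263. Its log2 ratios of -2.28, -2.25 and -2.22 hardly differed between the senescent libraries.

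Under the same limits as for the higher loci, lower regions formed 784 loci, 455 of 1 region and 68 of 5 or more. The one with most regions was a stretch that ends at THBS1, the gene of the matrix protein thrombospondin-1 (chr15:38998535-39894341), where 16 of 26 regions met the rule. PETs with an end there numbered 4099 in control and 1060, 1040 and 1345 in the senescent libraries, ratios of 0.468 (0.4367 to 0.5005), 0.406 (0.379 to 0.435) and 0.350 (0.329 to 0.372). Covered length was 277 kb in the control and 177 kb in the senescent set, and 1 of the 16 regions was lower per covered kb too. The region 326 kb from RASGRP1 described above lies inside this locus and is not a separate observation.

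A locus at PARVA, a focal adhesion protein, and TEAD1 (chr11:12396384-12924740) had 12 of 19 regions lower, with 2146 PETs against 456, 415 and 611. From SOCS5 to CALM2, which encodes calmodulin (chr2:46924222-47407142), 12 of 21 were lower, with 3228 PETs against 830, 840 and 1357. At CRIM1 and FEZ2 (chr2:36553717-36909047), where 10 of 11 were lower, 1723 PETs stood against 273, 238 and 436, ratios of 0.287, 0.221 and 0.270.

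Further loci of this rank were at CLEC16A and LITAF (10 of 16), RERE (9 of 15), GRK5, RGS10 and BAG3 (9 of 12), chr11:28402784-29360175 with no gene used for naming (9 of 12), ADCY9 and CREBBP (9 of 21), and ADARB1 and COL18A1 (9 of 10). CREBBP encodes an acetyltransferase that writes H3K27ac. The senescent set covers 0.423 to 0.687 times the length of the control set over these 10 loci, and at most 2 of the regions in each were lower per covered kb.

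Listed genes of the YAP and TGF-beta response, which drive contraction and matrix assembly in fibroblasts, had 4 lower and 1 higher of 8. Over all regions compared the shares were 10.8% and 10.4%. The start of THBS1 (chr15:39868307-39894341) had 451 PETs in control and 74, 42 and 62 in the senescent libraries, log2 ratios of -1.75, -2.73 and -2.75. ACTA2, the smooth muscle actin of myofibroblasts, had 105 against 16, 17 and 22, with log2 ratios of -1.82, -1.91 and -2.12. CCN2, a matricellular growth factor, had 230 against 53, 48 and 67, and TAGLN, an actin-binding protein, 67 against 17, 8 and 12.

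None of these 4 met the rule per covered kb. There the log2 ratios were 1.09, 0.11 and 0.08 at THBS1, where the control set covers 26.0 kb and the senescent set 3.64 kb. They were -0.47, -0.55 and -0.76 at ACTA2, -0.28, -0.59 and -0.70 at CCN2, and 0.35, -0.85 and -0.85 at TAGLN. GREM1, which encodes a BMP antagonist, was the higher member, with 96 PETs against 118, 126 and 197 and log2 ratios of 1.14, 1.06 and 1.12. By PETs 5 of the 8 were below control in every senescent library and 3, GREM1, TGFB2 and SMAD7, above it. Over all regions compared these shares were 42.5% and 37.3%. The list's median log2 ratios were -0.97, -1.18 and -1.32 by PETs but 0.62, 0.03 and -0.06 per covered kb.

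Fibroblast identity genes were mostly close to control, with 0 higher and 1 lower of 12, against 10.4% and 10.8% of all regions compared. The lower gene was THY1, a surface glycoprotein of fibroblasts (chr11:119286785-119294911), with 60 PETs in control and 3, 4 and 6 in the senescent libraries. Its log2 ratios were -3.25, -3.04 and -3.04. It was also the only listed gene lower per covered kb, at -1.52, -1.32 and -1.32. PRRX1, a mesenchymal homeobox factor, had 216 PETs against 247, 265 and 461, log2 ratios of 1.04, 0.97 and 1.18, and passed per covered kb only. PDGFRA, a receptor of platelet-derived growth factor, had 249 PETs against 173, 126 and 185, log2 ratios of 0.33, -0.30 and -0.33.

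Of 9 matrix genes compared 0 were higher and 1 lower, close to the 10.8% of all regions compared. COL1A1 and FN1 had anchors of the senescent set only at their starts, and ELN of the control set only. These genes were not compared. Below control in every senescent library were 7 of the 9 by PETs, against 42.5% of all regions, while the list's median log2 ratios per covered kb were 0.59, 0.45 and 0.09. DCN, the gene of decorin, had 162 PETs in control and 28, 23 and 29 in the senescent libraries, log2 ratios of -1.66, -2.11 and -2.35, and 0.53, 0.08 and -0.17 per covered kb (15.3 and 3.36 kb covered). COL3A1, a fibrillar collagen gene, had 231 PETs against 77, 64 and 102 and log2 ratios of -0.73, -1.17 and -1.08.

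Of 16 genes in the cell cycle list 5 had enough PETs: CCNA2, TOP2A, PCNA and the chromatin architecture genes HMGA1 and HMGA2. All 5 were below control by PETs in every senescent library, against 42.5% of all regions compared. Past the rule as lower was 1 of the 5, against 10.8% of all regions compared. Per covered kb the list's median log2 ratios were 0.13, -0.27 and 0.04. CCNA2, which encodes cyclin A2, had 95 PETs against 23, 26 and 40, log2 ratios of -1.17, -1.17 and -1.14, and -0.27, -0.27 and -0.23 per covered kb. TOP2A, the topoisomerase of dividing cells, had 104 against 31, 14 and 33, log2 ratios of -0.88, -2.17 and -1.54, and 0.52, -0.76 and -0.13 per covered kb. PCNA, the sliding clamp of DNA replication, had 74 against 32, 36 and 45, below control by PETs (-0.35, -0.36 and -0.61) and above it per covered kb (0.87, 0.86 and 0.60). The CDK inhibitors that enforce the arrest gave 0 higher and 0 lower of 3, against 10.4% and 10.8% of all regions compared. With so few genes these counts say little about the list. CDKN1A, encoding p21, had 138 PETs against 74, 100 and 139, and CDKN2A had 118 against 64, 65 and 102. The CDKN2A region compared was chr9:21982538-21997896, at 1 start of that gene. The start of its p16 transcript was not examined separately. CDKN2B, encoding p15, had 71 against 88, 69 and 130 and was above control in every senescent library, with log2 ratios of 1.15, 0.63 and 0.96. CDKN2A passed the rule per covered kb, with log2 ratios of 1.18, 1.03 and 1.09 and 15.4 and 6.64 kb covered.

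Both reference genes were below control by PETs in every senescent library. GAPDH, a glycolytic enzyme gene often used for scaling, had 144 PETs in control and 39, 36 and 60 in the senescent libraries, which meets the rule as lower (log2 ratios of -1.02, -1.31 and -1.16). Per covered kb it stood at 0.20, -0.09 and 0.06, with 14.8 and 6.37 kb covered. ACTB, the gene of beta-actin, had 91 PETs against 29, 32 and 28 and log2 ratios of -0.78, -0.82 and -1.58, and 0.01, -0.02 and -0.78 per covered kb, so shMETTL14 stayed below control by both measures. The senescent set covers less length at 75 of the 101 genes compared and at all 12 that were lower, and 1 of the 12 was lower by both measures. Of the 21 higher genes 19 were higher by both, and the senescent set covers less at 6 of them. The part that covered length has in the lower calls was not tested beyond this division.

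Genes at loci singled out in earlier work on these data gave 1 higher and 3 lower of 9, against 10.4% and 10.8% of all regions compared. These counts are not independent of that choice. TIPARP, an ADP-ribosyltransferase induced by the dioxin receptor (chr3:156381529-156405208), had 14 PETs in control and 232, 343 and 350 in the senescent libraries, log2 ratios of 4.81, 5.20 and 4.64, or 2.03, 2.42 and 1.87 per covered kb. LBH, a transcriptional cofactor (chr2:30452291-30490134), had 218 PETs against 4, 6 and 8, with 37.8 kb covered by the control and 2.87 kb by the senescent set. ABCC1, a drug exporter, had 210 against 56, 46 and 77, and the start of SNTB2 138 against 9, 11 and 20.

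**Figure D4:**
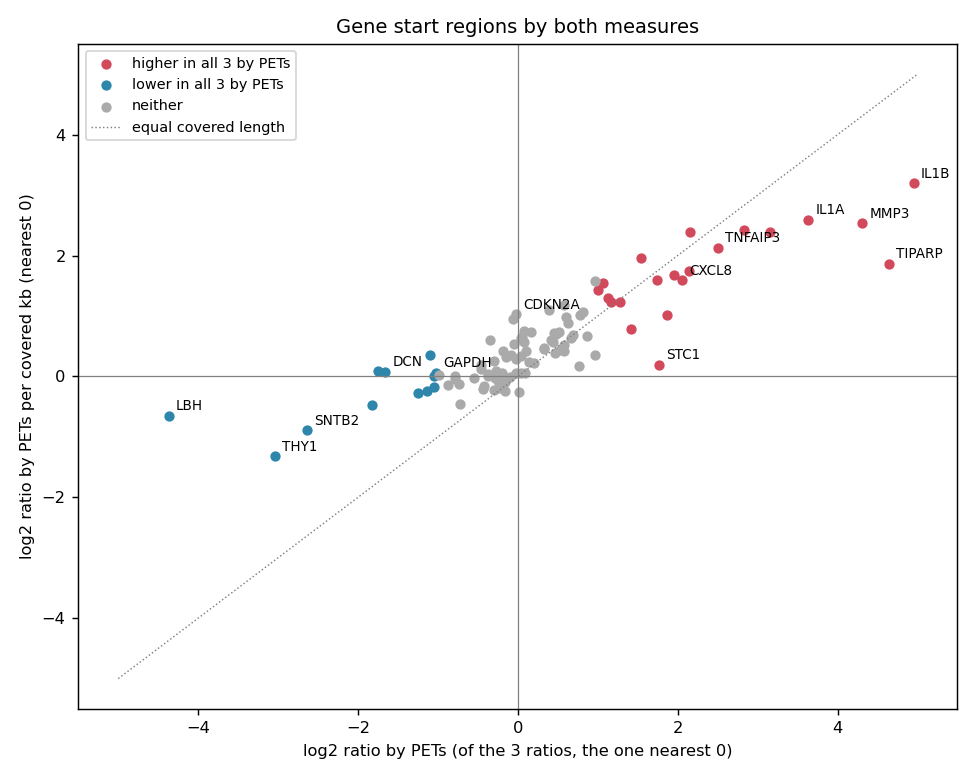
Log2 ratio of PETs (x axis) and of PETs per covered kb (y axis) at the start regions of the 101 listed genes compared, each the value nearest 0 of the 3 senescent libraries; the dotted line marks equal covered length. The 12 lower genes lie above the line, with all but LBH, SNTB2, THY1 and ACTA2 within 0.4 of 0 on the y axis, while most of the 21 higher genes stay above 1 on both axes.

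Whole windows of 1 Mb, counted over PETs with both ends in shared regions, with at least 200 PETs in each comparison and a pseudocount of 10 PETs per 1000000, gave 82 higher (5.57%) and 5 lower (0.339%) of 1473. Such PETs make up 64.1% of the control library but 79.7%, 78.0% and 77.8% of the senescent libraries. Scaled to those PETs instead, 34 windows were higher and 18 lower. The highest was chromosome 20 from 7 to 8 Mb, a gene-poor stretch beyond BMP2, with 66 PETs in control and 413, 425 and 481 in the senescent libraries, ratios of 11.3 (8.71 to 14.9), 10.3 (7.93 to 13.6) and 7.77 (5.997 to 10.2), and 34.5 and 67.5 kb covered.

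Next were chromosome 2 from 146 to 147 Mb, with 89 PETs against 438, 366 and 484, and chromosome 11 from 127 to 128 Mb, with 83 against 331, 375 and 446. On chromosome 8 from 123 to 124 Mb, around ZHX2, 274 PETs stood against 765, 874 and 1154. The window of BMP2, a bone morphogenetic protein gene (chromosome 20, 6 to 7 Mb), had 79 against 302, 285 and 303. The 5 lower windows included ABCC1 on chromosome 16 (698 PETs against 156, 156 and 236) and chromosome 6 from 27 to 28 Mb (1130 against 279, 183 and 285), where covered length went from 126 kb in the control to 57.3 kb in the senescent set and from 132 to 65.5 kb.

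Contacts between 2 particular shared regions, with at least 20 PETs in each comparison, were compared for 6573 pairs, of which 754 were higher (11.5%) and 706 lower (10.7%) in all 3 senescent libraries. Scaled to PETs with both ends in shared regions, 531 were higher and 1067 lower. Of the higher pairs 35.8% had both ends in higher regions and 24.5% had neither, while of all pairs 4.87% had both. Of the lower pairs 32.0% had both ends in lower regions and 15.2% neither, against 4.20% with both among all pairs.

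Of the 8 highest pairs, 6 had 0 PETs in control, so the order of their ratios is not known. A pair with 1 control PET joined the IL1B start region with chr2:113622315-113646823, 38.7 kb away, with 78, 98 and 103 PETs in the senescent libraries. With 1 control PET the interval of the ratio in shcontrol ran from 24.6 to 5642, and both ends were covered less by the control set (3.40 and 4.50 kb against 11.5 and 24.5 kb). A pair beside ETS1, from chr11:128464825-128477535 to chr11:128488402-128502006, had 0 PETs in control and 20, 21 and 48 in the senescent libraries. Set against a floor of 3 PETs per library, it was at least 12.1-fold, 11.2-fold and 17.1-fold higher.

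In the other direction, 2 regions of VAC14, which encodes a scaffold for lipid kinase PIKfyve (chr16:70712206-70730191 and chr16:70733434-70745845), shared 37 PETs in control and 0 in every senescent library, at least 6.82-fold, 7.71-fold and 11.6-fold lower by the same floor. LBH and a region 26.4 kb from it shared 52 PETs in control and 1, 0 and 0. A pair 372 to 396 kb from THBS1 (chr15:39469114-39477183 and chr15:39480173-39500955) shared 82 PETs in control and 2, 3 and 4.

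Called loops, interactions of at least 4 PETs and, in the column read as a false discovery rate, 0.01 or less, were counted after drawing every library to 552029 PETs. In total there were 16442 called loops in control and 12658, 12876 and 13588 in the senescent libraries. Loops with both ends in higher regions numbered 140 in control and 1157, 1187 and 1149 in the senescent libraries. Loops with both ends in lower regions numbered 677 in control and 40, 26 and 37. The regions were chosen from the same PETs, so these counts describe how the difference is spread over loops and are not separate evidence of it. Loops that joined a higher with a lower region were rare in every library, 10 in control and 2, 4 and 4 in the senescent libraries.

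**Figure D5:**
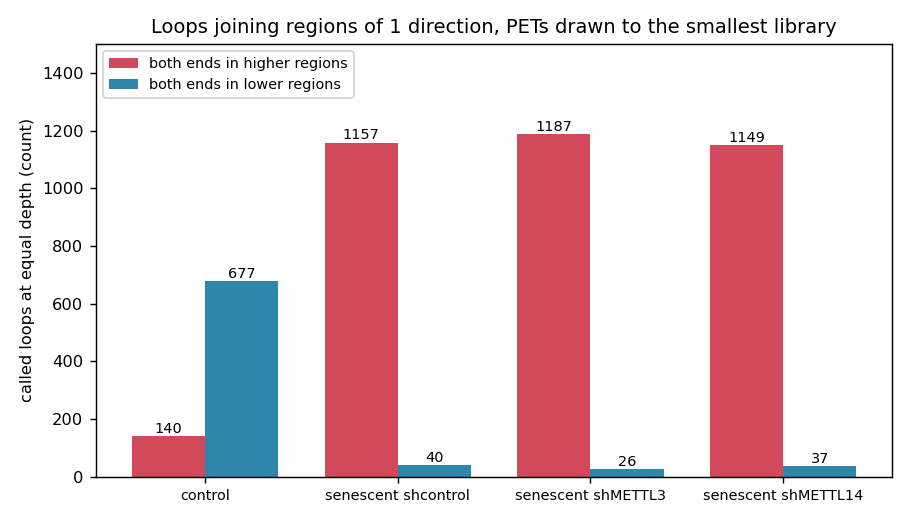
Number of called loops with both ends in higher regions (red) or both in lower regions (blue) in each library after PETs were drawn to the smallest library, 552029. Control has 140 and 677 of 16442 called loops, and the senescent libraries have 1149 to 1187 and 26 to 40 of 12658 to 13588.

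Spans of PETs were not used to choose the regions. The median span of PETs at higher regions was 119 kb in control and 84.5, 74.2 and 78.0 kb in the senescent libraries, and at lower regions it was 77.6 kb in control and 114, 98.1 and 105 kb. At regions compared that were neither it was 89.5 kb in control and 94.4, 80.0 and 86.3 kb. PETs spanning 100 kb or more made up 53.8% of those at higher regions in control and 46.0%, 43.0% and 44.7% in the senescent libraries, and 44.2% against 53.2%, 49.5% and 51.2% at lower regions. In each case the library with fewer PETs at the regions had the longer spans, and covered length moves the same way.

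The partners of these regions were counted on the PETs that chose them, so their shares describe and are not separate evidence. Of PETs with an end in a higher region, 24.2% in control and 36.1%, 36.1% and 34.7% in the senescent libraries had the other end in a higher region too. At lower regions 22.6% of control PETs led to another lower region and 16.6%, 15.9% and 16.4% of senescent PETs did. Another 22.9% of control PETs at lower regions led to regions outside the senescent anchor set, against 6.49%, 7.34% and 6.996% of senescent PETs that led outside the control set. Regions compared that were neither higher nor lower showed shifts in the same directions. There 2.77% of control PETs and 7.76%, 8.17% and 7.83% of senescent PETs led to a higher region, 7.44% and 2.91%, 2.74% and 2.81% to a lower one, and 18.2% and 8.75%, 9.43% and 9.44% outside the other anchor set.

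Chromosomes held unequal shares of these regions. The share of regions compared that were higher was 18.8% on chromosome 8, 16.96% on chromosome 18 and 15.6% on chromosomes 7 and 13, and 0 of 73 regions on chromosome X, 3.19% on chromosome 22, 4.54% on chromosome 16 and 4.65% on chromosome 19. Lower regions made up 16.7% on chromosome 15 and 16.1% on chromosome 16 but 6.94% on chromosome 5. On 9 of 23 chromosomes more regions were higher than lower. On all 23 the median log2 ratio per covered kb was above 0 in every senescent library. The median log2 ratio of covered length, senescent over control, was below 0 on the same 23, so dividing by length raises these medians. By PETs they were of both signs, such as 0.24, 0.21 and 0.20 on chromosome 8 and -0.37, -0.35 and -0.46 on chromosome 22.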

How the data were processed

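H3K27ac HiChIP interactions of 4 IMR90 libraries, 1 per group, were analysed. HiC-Pro 3.1.0 and hg19 are named per the submitters' processing notes; the caller of interactions and anchors is not named there. Each deposited file lists anchor pairs spanning 5 to 2000 kb with an unnormalized PET count in column 7, per the values in the authors' files. Column 8, which carries no name, was taken from its values to be a q-value deposited per interaction. Depth was 552029 to 998378 PETs.

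Anchors overlapping by 1 bp were merged, PETs with an end in a region were counted once and scaled to 1000000 PETs of the library, and each senescent library was set against control with the pseudocount, fold, PET minimum and interval given in the text. Python 3.11.15, NumPy 2.4.6, SciPy 1.17.1 and edgeR 4.0.16 (for TMM factors only) were used, and the scripts were tested on simulated data. Alternatives concerned scaling, covered length, thresholds, depth, merging and libraries.

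The members, gene lists and naming rules were chosen with earlier results of these data known. Named regions were the 12 highest and 12 lowest of those that met the rule by both measures with at least 100 PETs over the libraries, by the log2 ratio per covered kb nearest 0 and at most 1 per 500 kb; loci were the 10 with most regions and windows and pairs up to 8 in each direction. Gene values are given for listed genes past the rule and up to 3 others a list. The values of 1 listed gene are not reported here. Gene positions on hg19 were written from general knowledge and checked against chromosome and gene length or shared offset in a RefSeq GRCh38.p14 table. No position was converted, 156 of 159 listed genes were kept, and 78 genes served for naming only and were chosen after the regions were seen. Regions held by 1 anchor set only, 27592 of control and 14112 of senescent libraries, were not analysed here.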

Additional observations from a re-analysis of the deposited data

How the results depend on the processing

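With TMM scaling the 24 named regions and 32 of 33 genes stayed past the rule, the exception being INHBA (0.90). The named regions were chosen partly per covered kb, so their calls per covered kb are fixed by the choice. Per covered kb 20 of 33 genes stayed past it, 8 kept their direction only, and 5 changed sign at the ratio nearest 0, which became 0.0138 at FOSL2, 0.0768 at DCN, 0.0848 at THBS1, 0.35 at TAGLN and 0.058 at GAPDH.

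The 1498 higher and 1558 lower regions became 1175 and 91 per covered kb, and 73 and 4 where anchor ends are identical (fewer regions are compared). A minimum of 20 PETs gave 2914 and 2221, a minimum of 200 gave 182 and 224, a fold of 1.5 gave 2507 and 2580, and a fold of 3 gave 662 and 574. Called interactions only gave 620 and 1357, and equal depth 1178 and 929; the cause of these last changes was not tested. TMM scaling gave 1325 and 1806 and moved the median log2 ratio of all regions compared to -0.12, -0.15 and -0.20. Leaving out 1 senescent library gave 1723 to 2092 and 1755 to 2014.

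Pairs (754 and 706) became 139 and 179 at 50 PETs and 475 and 379 at equal depth. Windows (82 and 5) became 270 and 33 at 1.5-fold and 81 and 0 per covered kb. Scaling to PETs with both ends in shared regions, chosen after seeing the data, gave 34 and 18 windows and 531 and 1067 pairs. No paired analysis was possible because each group is 1 library.

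The count of lower regions went from 1558 to 91 when PETs were divided by covered length, which differs with the anchor set. The cause of this change was not tested. Regions with under 50 PETs were not compared.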

Other observations

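The genes of the enzymes that write and erase N6-methyladenosine had few PETs at their starts. METTL3, the catalytic writer subunit, had 32 PETs in control and 16, 8 and 9 in shcontrol, shMETTL3 and shMETTL14, and METTL14, its partner, had 32 against 13, 8 and 17. FTO, an eraser, had 14 against 9, 9 and 12. All 3 were under the minimum of 50 PETs in at least 1 comparison. ALKBH5, the other eraser, had 52 against 23, 29 and 32 and log2 ratios of -0.32, -0.16 and -0.59.

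MYC, a growth-promoting transcription factor, had 212 PETs at its start in control and 229, 167 and 310 in the senescent libraries. Its log2 ratios were 0.96, 0.33 and 0.64. In the stretch upstream of it, which begins and ends at called regions, 13 of 16 regions compared met the rule as higher. KLF6, a zinc finger factor, had 461 against 293, 317 and 520 and log2 ratios of 0.20, 0.14 and 0.27. LMNB1, the lamin gene whose product is lost in senescence, had 34 PETs against 11, 5 and 5, too few to compare.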
